A study of Mus musculus with 12 samples.

Results

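Cryab, the gene of the small heat shock protein alpha-B-crystallin, and 8 further cytosolic heat shock chaperone genes were followed in mouse retinas after laser photocoagulation. The 9 genes (Cryab, Hspb1, Hspb8, Hspa1a, Hspa1b, Hspa8, Hsph1, Hsp90aa1 and Dnajb1) were taken by their symbols from the 54367 genes of each deposited table, with earlier results of these data known. Retinas came from C57BL/6 wildtype mice aged 8 to 12 weeks. The right eye was burned with a 532 nm laser (spots of 75 µm for 0.1 s, at 4 positions), and the left eye had no laser and was the control. Retinas were taken on day 3 and on day 7, with 3 poly(A) RNA libraries of lasered and 3 of control eyes per day, 12 in all. All mice were anaesthetised, which the control eyes share, and had pupils dilated with drops, for which the labels name no eye. The series studies angiogenesis of the retina in an inflammatory stage, and the chaperones are part of what the laser burn could change.

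Heat shock chaperones keep other proteins folded. The small heat shock proteins Cryab, Hspb1 and Hspb8 hold unfolded proteins without using ATP. HSP70 proteins bind and release them in cycles of ATP hydrolysis: Hspa1a and Hspa1b are the stress-inducible forms and Hspa8 is the constitutive form. Dnajb1 is a J-domain partner (HSP40) that starts the ATPase cycle of HSP70, Hsph1 (HSP105) is an HSP110 protein that exchanges its nucleotide, and Hsp90aa1 is the inducible cytosolic HSP90. Under proteotoxic stress the factor Hsf1 binds heat shock elements, inverted repeats of the unit GAA, in the promoters of such genes. Cryab is one of the most abundant proteins of the lens and is also made in the retina, where glia and the pigment epithelium are known to hold it.

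Promoters are shown because these genes are classical targets of heat shock factors. A further reason was that Hspb1, Hspa1a and Hspa1b were low on day 3 and high on day 7. Not every member had that gap, and its cause was not tested. The RefSeq table (GRCm38.p6, the assembly of mm10) held entries for 6 of the 9 genes, and Cryab, Hspa8 and Hsp90aa1 had none. In the 250 bases before the start, 2 adjoining inverted units (GAANNTTC or TTCNNGAA, each reading the same on both strands) were found in Hspb1, Hspa1a, Hspa1b and Hsph1, and were not found in Hspb8 or Dnajb1. Of 27025 genes, 14.5% had such a match in the same window. A perfect match of 3 alternating units at the same spacing, on either strand, which contains the shorter one, was found in 0 of the 6 genes and in 0.514% of all genes. These are descriptions of letters and not of bound sites. In the following sequences, written 5′ to 3′ on the strand of the gene, capitals mark the match of 2 units. Hspb1 (chr5:135887669-135887918, plus strand) had matches 117 to 110 and 97 to 90 bases before its start. Hspa1a (chr17:34972157-34972406, minus strand) and Hspa1b (chr17:34959239-34959488, minus strand) each had GAAGATTC 104 to 97 bases before the start, and their 250 bases differed at 3 positions. Dnajb1 (chr8:83607925-83608174, plus strand, the first of its starts) is shown because it had the largest laser difference of the members tested on day 3.
Hspb1: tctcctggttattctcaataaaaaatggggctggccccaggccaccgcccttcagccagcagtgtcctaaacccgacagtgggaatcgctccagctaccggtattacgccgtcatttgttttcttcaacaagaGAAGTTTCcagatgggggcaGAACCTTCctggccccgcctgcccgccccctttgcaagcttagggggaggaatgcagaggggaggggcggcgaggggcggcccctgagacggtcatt
Hspa1a: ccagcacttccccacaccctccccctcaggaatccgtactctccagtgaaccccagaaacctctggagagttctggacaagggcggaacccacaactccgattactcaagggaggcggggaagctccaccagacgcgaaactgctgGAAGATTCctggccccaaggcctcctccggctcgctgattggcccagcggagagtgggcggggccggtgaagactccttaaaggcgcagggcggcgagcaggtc
Hspa1b: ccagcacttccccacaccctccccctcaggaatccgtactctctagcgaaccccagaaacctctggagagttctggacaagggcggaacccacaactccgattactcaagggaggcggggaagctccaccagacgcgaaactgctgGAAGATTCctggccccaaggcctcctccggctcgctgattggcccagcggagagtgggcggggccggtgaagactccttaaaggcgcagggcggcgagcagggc
Dnajb1: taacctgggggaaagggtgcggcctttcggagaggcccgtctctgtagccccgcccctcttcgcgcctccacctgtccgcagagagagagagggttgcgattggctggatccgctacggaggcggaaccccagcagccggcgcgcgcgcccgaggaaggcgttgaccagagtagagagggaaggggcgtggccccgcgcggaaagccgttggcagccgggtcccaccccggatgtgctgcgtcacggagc

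All values are a signal per gene, scaled by exon length and library and named TPM by the submitters. Recovered from the steps of the low values, the day 3 libraries held 9282007 to 12515828 reads in genes and those of day 7 held 23886207 to 31092905. Marker sums checked the tissue and the libraries. The 9 rod markers summed to 10280, 25320 and 18880 in lasered retinas 1, 2 and 3 and to 21830 to 27610 in controls on day 3, and to 46290 to 58490 and 61240 to 67010 on day 7. The 9 markers of microglia and macrophages summed to 1266, 209 and 287 in lasered retinas 1, 2 and 3 of day 3 against 48.4 to 53.9 in controls, and to 458 to 545 against 105 to 129 on day 7. In bulk retina, fewer cells of a type and less RNA per cell cannot be told apart. Among the 17 lens markers, lasered retina 2 of day 3 (519) and lasered retina 1 of day 7 (1507) stood apart from the other 10 libraries (4.85 to 27.4). The lens alpha-crystallin gene Cryaa was at 157 and 546 in these libraries and at most at 1.02 in the others.

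Day 3 was examined first, for the question of how the chaperones stood early after the burn. Dnajb1, Cryab, Hsph1 and Hspb8 were higher in lasered retinas by 1.41, 1.12, 0.82 and 0.56 on the log2(value + 1) scale, and Hsp90aa1 by 0.24, with every lasered library above every control. Hspa8 was lower by 0.12 with overlapping groups, and Hspb1, Hspa1a and Hspa1b rested on 1 to 48 reads per library. With limma and Benjamini-Hochberg adjustment over 16786 genes, 0 of the 7 members tested passed 0.05, against 0.143% of all genes higher and 0.00596% lower. The smallest adjusted p was 0.0883. Without adjustment 4 of the 7 had p at most 0.05, against 23.0% of all genes in either direction. Lasered libraries lay above all controls in 5 of 7, against 27.7% of all genes, and below all controls in 0, against 3.82%. The median difference of the 7 was 0.56, and that of all genes was 0.16. The labels do not tell which libraries came from one mouse, so the p-values speak only of the spread among these libraries.

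**Figure D1:**
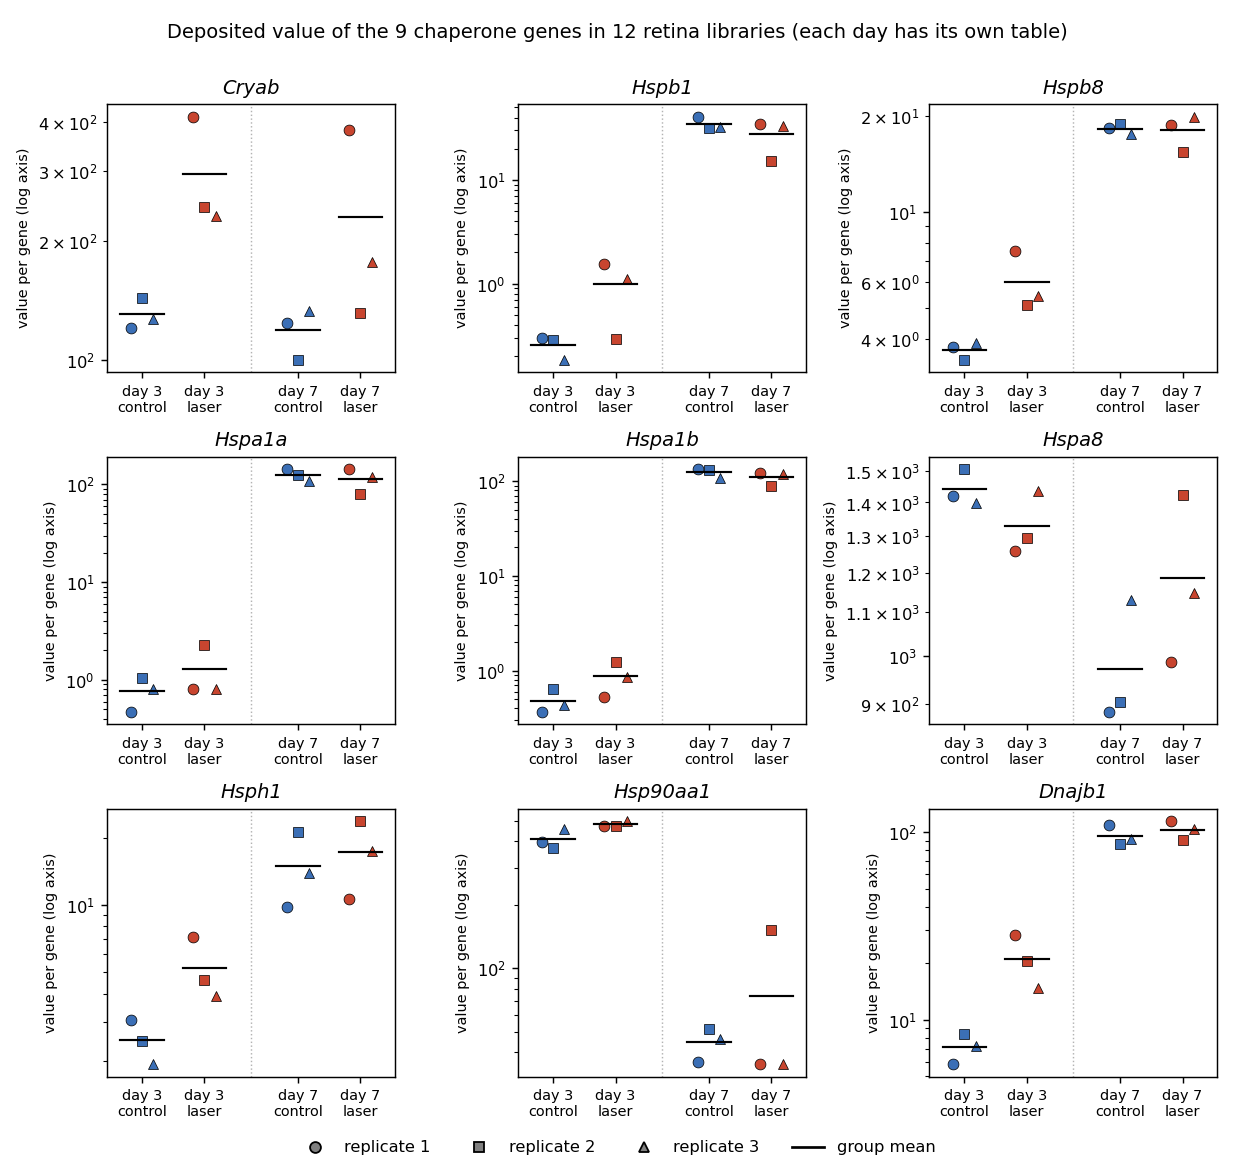
The deposited value of each gene (vertical log axis, with its own range per panel) is plotted for controls in blue and lasered retinas in red on both days. Symbols give the replicate number and black lines the group means, and on day 3 every red point of Cryab, Hspb8, Hsph1, Hsp90aa1 and Dnajb1 lies above every blue point.

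Among the small heat shock proteins, Cryab (ENSMUSG00000032060, mm10 chromosome 9, 50751325 to 50756636, plus strand) had the largest difference on day 3. Its values were 412, 244 and 232 in lasered retinas 1, 2 and 3, and 121, 144 and 127 in controls 1, 2 and 3. The lowest lasered retina was above the highest control, and lasered retina 1 was the highest of the 6. The means were 296 ± 101 and 131 ± 11.9 (SD, n = 3 each), a ratio of 2.26, and limma gave 1.12 with a standard error of 0.23 and an adjusted p of 0.0915. Leaving out lasered retina 1, the library with the highest sum of microglia markers and the lowest sum of rod markers, gave 0.86 with an adjusted limma p of 0.0321. In that fit 294 of 16396 genes passed the threshold. Leaving out lasered retina 2, which held lens transcripts, gave 1.24 with an adjusted limma p of 0.108. With each library left out in turn, the adjusted limma p of Cryab ranged from 0.0321 to 0.301.

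Hspb8 (ENSMUSG00000041548, mm10 chromosome 5, 116408491 to 116422864, minus strand), which works with the co-chaperone Bag3 in selective autophagy, was lower in level than Cryab. Its values on day 3 were 7.52, 5.08 and 5.42 in lasered retinas and 3.76, 3.43 and 3.88 in controls. The groups did not overlap, and lasered retina 1 was again the highest. The difference was 0.56 with a standard error of 0.18 and an adjusted limma p of 0.132, and the ratio of the means was 1.63.

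Hspb1 (ENSMUSG00000004951, HSP25, mm10 chromosome 5, 135887919 to 135889563, plus strand) had the fewest reads of the 9 on day 3. Its values were 1.56, 0.291 and 1.12 in lasered retinas, from 8, 2 and 6 reads, and 0.297, 0.288 and 0.184 in controls, from 2, 2 and 1 reads. Lasered retinas 1 and 3 were above the controls and lasered retina 2 was among them. The exact Poisson interval (95%, counting error only) was 0.673 to 3.07 for lasered retina 1 and 0.0359 to 1.07 for control 1. The ratio of the means was 3.86, from 16 and 5 reads in all. Hspb1 had a mean under the minimum of 1 and was not tested. In the fit without that minimum its difference was 0.61 with an adjusted limma p of 0.384.

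Within the HSP70 system, Dnajb1 (ENSMUSG00000005483, mm10 chromosome 8, 83608193 to 83612653, plus strand) showed the largest difference on the log2(value + 1) scale and the smallest p of the 7 members tested on day 3. Its values on day 3 were 28.3, 20.5 and 14.8 in lasered retinas and 5.79, 8.37 and 7.27 in controls. The lowest lasered retina was well above the highest control, and lasered retina 1 was the highest. The means were 21.2 ± 6.81 and 7.14 ± 1.29 (SD, n = 3 each), a ratio of 2.97, and limma gave 1.41 with a standard error of 0.25 and an adjusted p of 0.0883. Lasered retina 1 was thus the highest library in Dnajb1, Cryab, Hsph1 and Hspb8 and also in the microglia markers, the part of which in these differences was not tested. A difference at least as large as that of Dnajb1 was found in 2.76% of all genes tested. Leaving out lasered retina 1 gave 1.19 with an adjusted limma p of 0.0460, in a fit where 294 of 16396 genes passed the threshold. With each library left out in turn, the adjusted limma p of Dnajb1 ranged from 0.0460 to 0.301.

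Hsph1 (ENSMUSG00000029657, mm10 chromosome 5, 149614287 to 149636376, minus strand) was at 7.19, 4.59 and 3.92 in lasered retinas of day 3 and at 3.05, 2.45 and 1.93 in controls. The groups did not overlap, and lasered retina 1 was the highest of the 6. The difference was 0.82 with a standard error of 0.24 and an adjusted limma p of 0.119, and the ratio of the means was 2.11.

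The constitutive Hspa8 (ENSMUSG00000015656, mm10 chromosome 9, 40800984 to 40810087, plus strand) was the highest of the 9 on both days. On day 3 it was at 1258, 1295 and 1435 in lasered retinas and at 1420, 1507 and 1397 in controls. The groups overlapped, with a difference of -0.12, a standard error of 0.12 and an adjusted limma p of 0.583. Its annotated exons, pooled over all its transcripts, overlap 3 small nucleolar RNA genes on the same strand (Snord14c, Snord14d and Snord14e). The overlaps were 86 to 90 bases, short against the 4301 pooled exon bases of Hspa8. The pooling does not tell in which transcripts these stretches are exons.

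The inducible pair Hspa1a (ENSMUSG00000091971, mm10 chromosome 17, 34969190 to 34972156, minus strand) and Hspa1b (ENSMUSG00000090877, mm10 chromosome 17, 34956436 to 34959238, minus strand) are neighbouring genes without introns in their coding sequence. Their coding sequences differed at 8 of 1926 aligned bases, were 99.6% identical, had 3 bases in gaps and shared an identical run of 638 bases. The sources used here do not say how reads that match both genes were counted, so the split between them is uncertain. The untranslated parts of their 2967 and 2803 exon bases were not compared and may differ more. The stretch of coding bases 1357 to 1416 is shown because it holds 2 of the differences, in capitals, and illustrates how few coding bases differ (GRCm38, Hspa1a at chr17:34970510-34970569 and Hspa1b at chr17:34957592-34957651, both minus strand).
Hspa1a: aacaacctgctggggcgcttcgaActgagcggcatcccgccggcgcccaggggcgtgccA
Hspa1b: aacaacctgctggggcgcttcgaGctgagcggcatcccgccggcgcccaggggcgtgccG

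On day 3 Hspa1a was at 0.812, 2.29 and 0.807 in lasered retinas, from 12, 48 and 13 reads, and at 0.467, 1.047 and 0.805 in controls, from 9, 20 and 12 reads. Hspa1b was at 0.524, 1.22 and 0.853 in lasered retinas and at 0.363, 0.637 and 0.429 in controls. In both genes the highest library was lasered retina 2, which also held lens transcripts, the part of which was not tested, and lasered retina 1 lay within the control range in both. Lasered retina 3 lay within it in Hspa1a and above it in Hspa1b. Hspa1a passed the minimum through the lasered group, whose mean was 1.30 against 0.773 in controls, and its difference was 0.33 with an adjusted limma p of 0.546. Hspa1b was under the minimum, and without it the difference was 0.33 with an adjusted limma p of 0.512. Tested as 1 gene, the sum of the pair differed by 0.45 with a standard error of 0.30 and an adjusted limma p of 0.394.

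Hsp90aa1 (ENSMUSG00000021270, mm10 chromosome 12, 110690605 to 110702728, minus strand) was at 472, 471 and 497 in lasered retinas of day 3 and at 396, 372 and 456 in controls. Every lasered retina was above every control, but the gap between the lowest lasered and the highest control was narrow. The difference was 0.24 with a standard error of 0.13 and an adjusted limma p of 0.304.

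These day 3 differences stood on a table in which lasered values were higher in general. Median-of-ratios rescaling of each library moved the median of all genes from 0.16 to -0.01. After it, Dnajb1 was higher by 1.21, Cryab by 0.91, Hsph1 by 0.65 and Hspb8 by 0.39, and lasered libraries still lay above all controls in these 4, against 15.7% of all genes. Hsp90aa1 then differed by 0.02 with overlapping groups. Hspa8 differed by -0.33 and its lasered libraries then lay below all controls, against 14.3% of all genes. None of the 7 had an adjusted limma p at most 0.05 after rescaling, the smallest being 0.166 for Dnajb1.

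**Figure D2:**
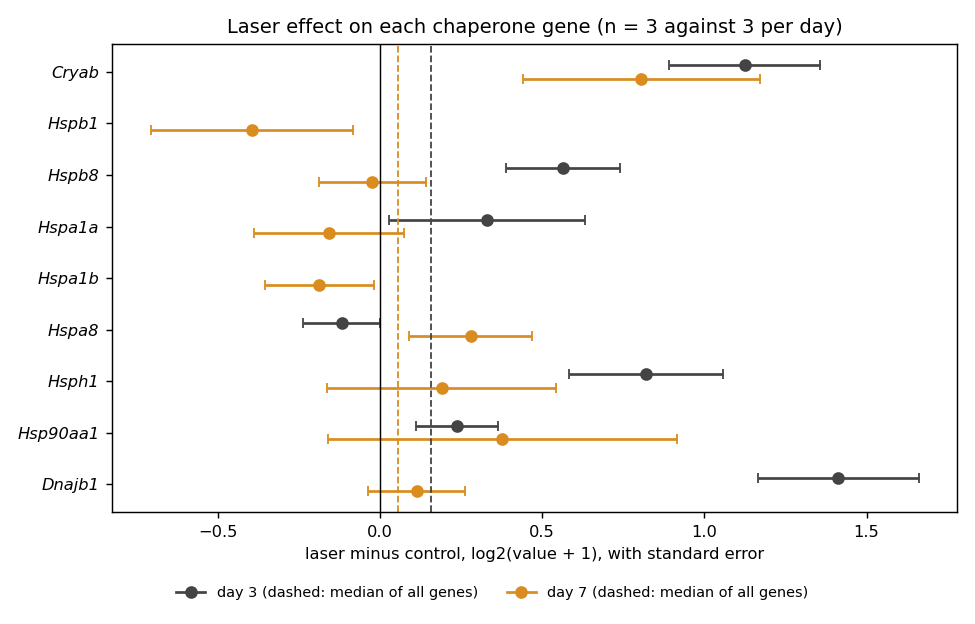
The laser difference of each gene on the log2(value + 1) scale (horizontal axis, bars are standard errors) is plotted for day 3 in grey and day 7 in orange, with the median of all genes as a dashed line. Hspb1 and Hspa1b were not tested on day 3 and have no grey point, and Dnajb1 shows the widest gap between the days.

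Day 7 was examined for the same question at the later time. All 9 members passed the minimum, 0 of 9 passed the adjusted threshold of 0.05 in limma (0.237% of 15592 genes were called higher and 0.00641% lower), and 0 of 9 had an unadjusted p at most 0.05, against 3.94% of all genes. In 0 of 9 were the lasered libraries all above (6.78% of all genes) or all below the controls (2.11%). The median difference was 0.11 over the 9 members and 0.06 over all genes, and the smallest adjusted limma p was 0.9998. The difference was positive in 5 of the 9 members and negative in 4. After median-of-ratios rescaling the groups of all 9 still overlapped, against 4.22% of all genes above and 3.25% below all controls.

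Cryab was the member with the largest day 7 difference, 0.81, which ranged from 0.37 without lasered retina 1 to 1.13 without lasered retina 2 (adjusted limma p of 0.906 and 0.420) and was 1.27 with library weights (adjusted limma p of 0.0827). Its values were 382, 132 and 178 in lasered retinas 1, 2 and 3 and 124, 100 and 133 in controls. Lasered retinas 1 and 3 were above all controls and lasered retina 2 was just under the highest control. The standard error of the difference was 0.36, with an unadjusted limma p of 0.0614 and an adjusted p of 0.9998. Between libraries of equal number the lasered value was 3.07, 1.31 and 1.34 times the control value. With the replicate number as a block the limma p of Cryab was 0.0196 before and 0.483 after adjustment.

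Lasered retina 1 of day 7, the highest in Cryab, was also the library with the lens transcripts. Its lens markers summed to 1507 against 10.7 and 11.9 in the other lasered retinas and 8.03 to 14.2 in controls. In every lasered retina of day 7, 1 of the 17 markers was above all controls, against 6.78% of all genes tested. Without this library the Cryab difference was 0.37 with an adjusted limma p of 0.906. On day 3 the order differed: lasered retina 1, with a lens sum of 27.4, had a Cryab of 412, and lasered retina 2, with a lens sum of 519, had 244. Lasered retina 3 of day 3, with a lens sum of 11.3 against 4.85 to 9.95 in controls, had 232. On day 3 the lens gene Gja3 was at 0 in all 6 libraries, and 5 of the 17 markers were under 1 in all of them. Of the 17, 3 were above all controls in every lasered retina, against 27.7% of all genes tested. One of these was Crybb3 at 14.8, 17.04 and 3.71 against 1.503 to 1.68 in controls.

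**Figure D3:**
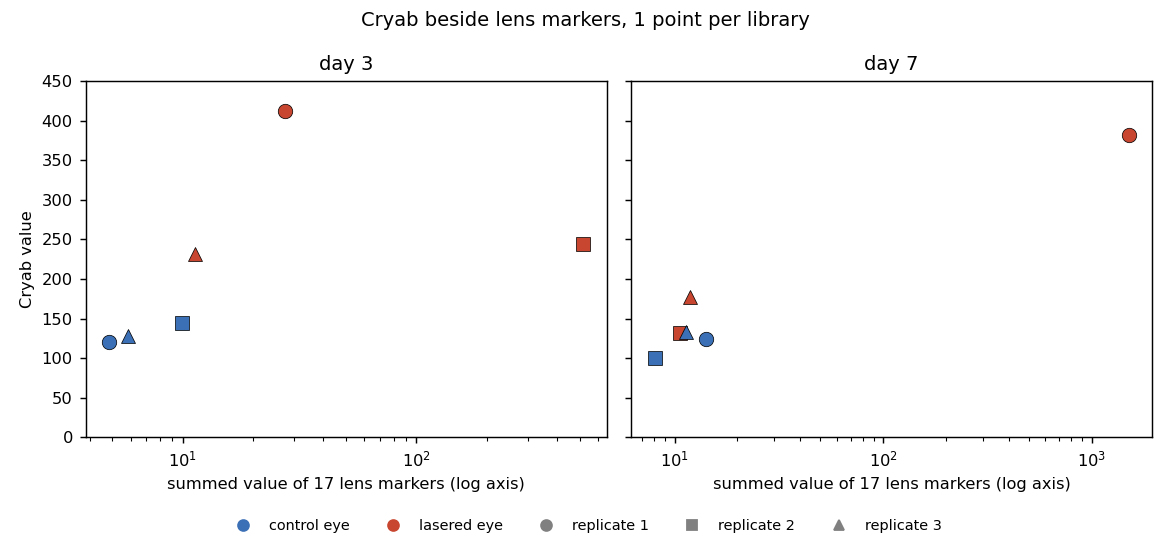
Cryab (vertical axis, linear, deposited value) is plotted against the sum of 17 lens markers (horizontal log axis) for the 6 libraries of each day, in blue for controls and red for lasered retinas. On day 7 the library with the highest Cryab (382) has a lens sum of 1507, whereas on day 3 the library with the highest Cryab (412) has a lens sum of 27.4.

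Markers of other cell types of the retina that may hold Cryab were summed as well, and of these sums only that of Müller glia on day 7 did not overlap between the groups. The 9 Müller glia markers summed to 1667 to 2075 in lasered and 1504 to 1757 in control retinas on day 3, and to 9483 to 10930 and 6736 to 7498 on day 7. The highest genes of the day 7 sum were Apoe and Glul. Apoe was at 4338, 2715 and 4315 in lasered retinas and 1507 to 2053 in controls. Glul was at 3610, 4203 and 4438 against 3253 to 3607, a narrow gap. On each day 5 of the 9 were above all controls, against 27.7% of all genes on day 3 and 6.78% on day 7, and 1 (Glul, at 67.2, 285 and 238 against 310 to 318) was below all controls on day 3. The 5 astrocyte markers summed to 792 to 945 against 730 to 860 on day 3 and to 863 to 1247 against 932 to 1184 on day 7, sums in which Aldoc was the highest gene in 11 of the 12 libraries. On each day 2 of the 5, Gfap and Aldh1l1, were above all controls. Gfap, which Müller glia also make after injury, was at 412, 93.8 and 104 in lasered retinas and 5.32 to 8.68 in controls on day 3, and at 164, 120 and 136 against 15.2 to 34.3 on day 7. The 9 markers of the retinal pigment epithelium summed to 63.8, 241 and 770 in lasered retinas 1, 2 and 3 of day 3 and 398 to 619 in controls, so that lasered retina 1, with the highest Cryab, had the lowest sum. The part of these cell types in the Cryab result was not tested. Cryab overlaps Hspb2 on the opposite strand over 252 exon bases. The sources used here do not say whether counting used the strand, and the values of Hspb2 spanned 0.534 to 2.41 on day 3 and, on day 7, 0.566 to 1.35.

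The other small heat shock proteins did not separate the groups on day 7. Hspb8 was at 18.7, 15.4 and 19.9 in lasered retinas and at 18.3, 18.8 and 17.6 in controls, a difference of -0.02 with a standard error of 0.16. Hspb1 was at 34.8, 15.3 and 33.4 in lasered retinas and at 40.8, 31.5 and 32.6 in controls, a difference of -0.39 with a standard error of 0.31. Lasered retina 2 was the lowest of the 6 libraries in both genes, and without it the difference of Hspb1 was -0.03 and that of Hspb8 was 0.08.

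In the HSP70 system on day 7, Dnajb1 was at 114, 91.0 and 104 in lasered retinas and at 108, 85.9 and 91.5 in controls. The groups overlapped, although each lasered library was above the control of equal number, by 1.054, 1.06 and 1.14 times. The difference was 0.11 with a standard error of 0.15, far below the 1.41 of day 3. Hsph1 was at 10.7, 23.7 and 17.4 in lasered retinas and at 9.82, 21.1 and 13.9 in controls, with ratios of 1.09, 1.12 and 1.25 between equal numbers. The spread within each group was wider than the difference, which was 0.19 with a standard error of 0.35.

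Hspa1a on day 7 was at 144, 79.4 and 120 in lasered retinas and at 142, 124 and 108 in controls, a difference of -0.16 with a standard error of 0.23. Hspa1b was at 121, 89.3 and 118 in lasered retinas and at 135, 131 and 107 in controls, a difference of -0.19 with a standard error of 0.17. Lasered retina 2 was the lowest of the 6 in both, and the sum of the pair differed by -0.17 with a standard error of 0.20. Hspa8 was at 987, 1424 and 1147 in lasered retinas and at 884, 903 and 1130 in controls, a difference of 0.28 with a standard error of 0.19. For Hspa8 lasered retina 2 was the highest library, and lasered retina 1 lay within the control range.

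Hsp90aa1 on day 7 was at 35.2, 152 and 34.9 in lasered retinas and at 35.9, 51.4 and 45.9 in controls. Lasered retina 2 was far above all other libraries, while the other lasered retinas were below all controls. The difference of 0.38 (standard error 0.54) turned to -0.32 without that library. Lasered retina 2 of day 7 was thus the highest library in Hsp90aa1, Hsph1 and Hspa8, and the lowest in Hspb1, Hspb8, Hspa1a and Hspa1b. Control 2 was the highest control in Hsp90aa1 and Hsph1 but not in Hspa8. It was the lowest control in Hspb1 but not in Hspb8, Hspa1a or Hspa1b.

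The change of the laser difference between the days was tested by itself, as the interaction of day and laser in limma over 12 libraries. Of 17611 genes 0 passed the adjusted threshold of 0.05 (a share of 0%), with 9.39% at an unadjusted p at most 0.05, and 0 of 9 members passed. The largest member value was that of Dnajb1, whose difference was smaller on day 7 by 1.30 on the log2 scale (day 7 minus day 3 of -1.30, standard error 0.31), with an unadjusted p of 0.00131 and an adjusted p of 0.382. Hspb1 (-1.003, adjusted p 0.515) and Hspb8 (-0.59, adjusted p 0.480) were the other members with an unadjusted p under 0.05. Hspb1 and Hspa1b were under the minimum on day 3 and entered this test through day 7, and their values moved with the pseudocount. That of Hspb1 went to -1.80 at 0.1 and to -0.52 at 5. That of Hspa1b (-0.51) went to -0.90 at 0.1 and to -0.28 at 5. Both are therefore given as descriptions. Other members moved as well. At 0.1 and 5, Dnajb1 went to -1.41 and -0.97, and Hspb8 to -0.69 and -0.35. Hsph1 (-0.63) went to -0.82 and -0.29, and Hspa1a (-0.49) to -0.74 and -0.27. Cryab, Hspa8 and Hsp90aa1 moved little. Cryab had -0.32 with a standard error of 0.48 and an adjusted p of 0.939, so no loss of its laser difference between the days was resolved. Hsp90aa1 and Hspa8 had positive values, of 0.14 and 0.40.

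Levels in the control retinas gave the order of the genes within a day. On day 3 it ran from Hspa8 (1397 to 1507) over Hsp90aa1 (372 to 456) and Cryab (121 to 144) down to Dnajb1, Hspb8, Hsph1, Hspa1a, Hspa1b and Hspb1 (0.184 to 0.297), and of these neighbours only the control ranges of Hspa1a and Hspa1b overlapped. On day 7 Hspa8 (884 to 1130) was again first. Hspa1a (108 to 142), Hspa1b (107 to 135), Cryab (100 to 133) and Dnajb1 (85.9 to 108) followed with ranges in which each overlapped its neighbour. Hsp90aa1 (35.9 to 51.4) and Hspb1 (31.5 to 40.8) overlapped, as did Hspb8 (17.6 to 18.8) and Hsph1 (9.82 to 21.1).

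The same genes stood far apart between the tables even without laser. Control means went from 0.476 on day 3 to 124 on day 7 for Hspa1b, a 261-fold gap, and from 0.773 to 125 for Hspa1a, a 162-fold gap. For Hspb1 they went from 0.256 to 34.98, and for Dnajb1 from 7.14 to 95.2. In reads, the control libraries held 41 for Hspa1a on day 3 and 10106 on day 7, and 5 and 978 for Hspb1. Hsph1 (6.03-fold) and Hspb8 (4.94-fold) were also higher on day 7, while Hsp90aa1 was 9.19-fold lower and Cryab (0.911-fold) and Hspa8 (0.675-fold) were closer to level. On the log2 scale with 1 added to each control mean, the rise was 6.41 for Hspa1b and 6.15 for Hspa1a. A rise at least as large as that of Hspa1b was found in 0.216% of 19470 genes, and as that of Hspa1a in 0.308%, counting rises only. For Hspb1 this share was 2.11%, for Dnajb1 8.44%, for Hsph1 20.2% and for Hspb8 22.0%. A fall at least as large as that of Hsp90aa1 was found in 3.48%, counting falls only. Large gaps were common in these tables, since 16.97% of genes differed by at least 3 on that scale in either direction. Each table was normalised by itself and each day has its own libraries, so the day, the mice and the processing of the table cannot be told apart, and the gap is given as a description.

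The wider chaperone network was read from 8 lists with 81 genes, of which 76 were tested on day 3 and 77 on day 7. With limma 0 genes passed the adjusted threshold of 0.05 on either day. On day 3, 37 of 76 had an unadjusted p at most 0.05, against 23.0% of all genes, 41 lay above all controls, against 27.7%, and the median difference was 0.37 against 0.16 for all genes. On day 7, 0 of 77 had an unadjusted p at most 0.05, against 3.94% of all genes, 2 lay above all controls (Bag3 and Trap1), against 6.78%, and the median was 0.07 against 0.06. After median-of-ratios rescaling, 22 of the 76 genes (28.9%) lay above all controls on day 3, against 15.7% of all genes, and 8 lay below, against 14.3%. The median of the 76 was then 0.18, and 47 of them were positive, compared with 66 before.

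**Figure D4:**
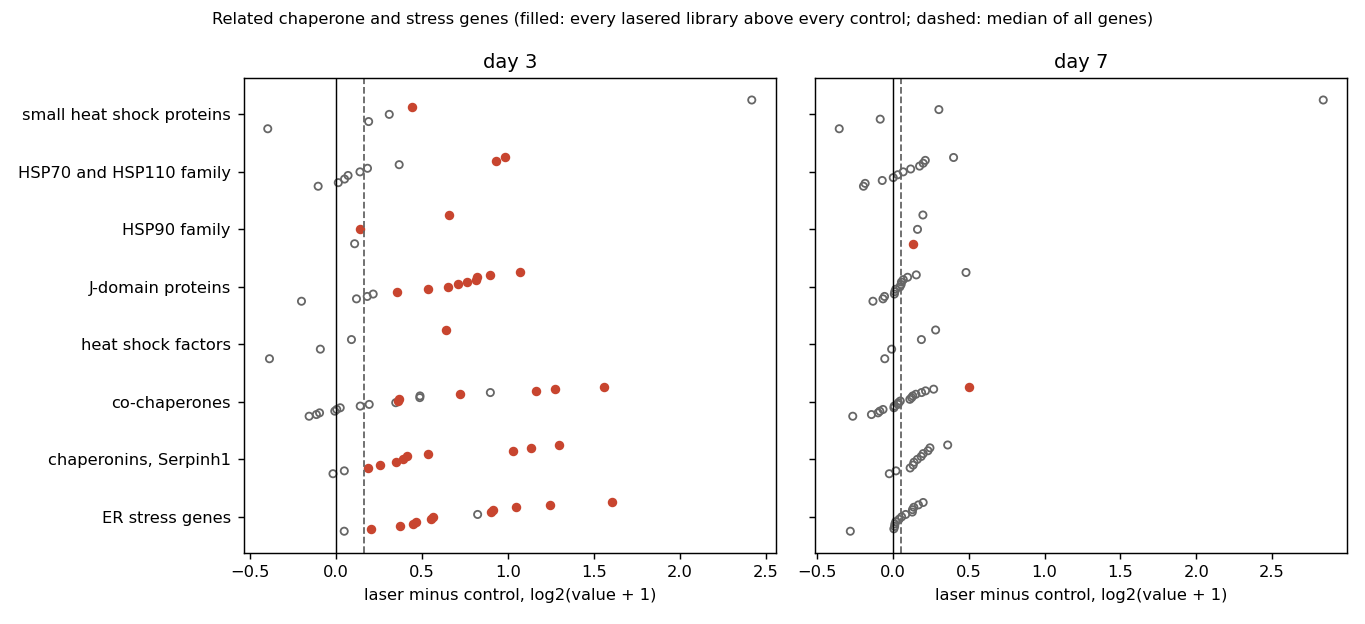
Each point is 1 gene of 8 related lists, placed by its laser difference on the log2(value + 1) scale (horizontal axis), for day 3 on the left and day 7 on the right. Filled red points have every lasered library above every control (41 on day 3 and 2 on day 7), and the dashed line is the median of all genes (0.16 and 0.06).

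Other J-domain proteins, the partners that deliver substrates to HSP70, had the highest list median on day 3 (0.65, with 9 of 13 above all controls, against 27.7% of all genes). Dnaja3 of the mitochondrion was at 19.2, 18.1 and 14.1 in lasered retinas and at 8.60, 10.3 and 8.76 in controls, a difference of 0.82 with an adjusted limma p of 0.0903. Dnajb5, a relative of Dnajb1, differed by 0.81 with an adjusted limma p of 0.0938. After rescaling the list median was 0.48. Above all controls were then 7 of 13, against 15.7% of all genes, and 1 was below, against 14.3%. On day 7, before rescaling, the median was 0.04 and 0 of 13 lay above all controls, against 6.78% of all genes.

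Co-chaperones included several with differences above 1 on day 3, and their list median was 0.35. On that day 6 of 18 lay above all controls, close to the 27.7% of all genes. After rescaling the median was 0.15, with 4 of 18 above all controls, against 15.7% of all genes, and 3 below, against 14.3%. Hspbp1, a nucleotide exchange factor of HSP70, differed by 1.27 and Cdc37, which brings kinases to HSP90, by 1.16, each with an adjusted limma p of 0.0883. Bag3, the partner of Hspb8, had the smallest p of this list on day 7, and its day 3 values were chosen after they were seen. It was at 12.7, 2.96 and 2.53 in lasered retinas and at 0.592, 1.17 and 1.16 in controls on day 3, and at 16.3, 12.5 and 21.2 against 11.6, 12.2 and 10.1 on day 7. Every lasered library was above every control on both days, though narrowly on day 7, where the difference was 0.50 with an unadjusted limma p of 0.0594 and an adjusted p of 0.9998. After rescaling 0 of the 77 genes lay above all controls on day 7, against 4.22% of all genes.

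Of the other HSP70 and HSP110 genes, 2 of 9 lay above all controls on day 3, a share below the 27.7% of all genes. These were Hspa5 (BiP) of the endoplasmic reticulum, higher by 0.98, and Hspa9 (mortalin) of the mitochondrion, higher by 0.93. The list median was 0.14, below that of all genes, and turned to -0.06 after rescaling. In the HSP90 list, the constitutive cytosolic Hsp90ab1 was at 436, 338 and 383 in lasered retinas and at 210, 288 and 239 in controls, a difference of 0.65 with an adjusted limma p of 0.0996. The mitochondrial Trap1 differed by 0.14. After rescaling 0 of the 3 HSP90 genes lay above all controls, against 15.7% of all genes, and the median was -0.08.

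Chaperonins of the TRiC ring, which fold actin and tubulin, with those of the mitochondrion and the collagen chaperone Serpinh1, lay above all controls in 9 of 11 genes on day 3, against 27.7% of all genes, with a median of 0.39. Cct4 differed by 1.03 and Cct6a by 1.13, with adjusted limma p of 0.0915 and 0.0938. Genes of endoplasmic reticulum stress were positive in 13 of 13 with a median of 0.56, and 11 of 13 lay above all controls, against the same 27.7%. The smallest p were those of Sdf2l1 with 1.61 (adjusted limma p of 0.0903) and Creld2 with 1.04 (adjusted p of 0.109). After rescaling, 5 of 11 chaperonin genes and 3 of 13 stress genes lay above all controls, against 15.7% of all genes. In each list 1 gene then lay below all controls, against 14.3% of all genes, and the medians were 0.17 and 0.35. On day 7 the medians were 0.16 and 0.06 before rescaling and 0.07 and -0.03 after it.

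The heat shock factor list held 4 tested genes. Hsf1, the main heat shock factor, was at 6.41, 6.97 and 4.75 in lasered retinas and at 2.72, 4.06 and 3.78 in controls on day 3, a difference of 0.64 with an adjusted limma p of 0.130. Hsf2 differed by -0.39 with overlapping groups. The list median was -0.0021, and -0.17 after rescaling. Above all controls were then 0 of the 4, against 15.7% of all genes, and 1 was below, against 14.3%. Among the other small heat shock proteins, Hspb11, which despite its name is a subunit of intraflagellar transport, differed by 0.44 on day 3, and Cryaa was high in the 2 libraries with lens transcripts and at most at 1.02 in the other 10.

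The genes with the smallest p of each list on day 7 had in each case an adjusted limma p of 0.9998. Dnajb9 and Hspa4l differed by 0.48 and 0.40, with lasered retina 2 far above the others (25.9 and 13.7). Control 2 was the highest control in both (12.6 and 6.70). Dnajb5 differed by -0.13, Hspa12b by -0.18 and the HSP90 genes Hsp90ab1 and Trap1 by 0.16 and 0.13. Hsbp1, which binds heat shock factor, differed by 0.19, Hsf2 by 0.28 and Bag2 by 0.21. Cct5, Serpinh1, Herpud1 and Sdf2l1 differed by 0.19, 0.23, 0.17 and 0.20. Hspb11 differed by 0.30, and Cryaa by 2.84 with a standard error of 2.22, from the single library with a value of 546.

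For each member the genes most like it were sought over 12 libraries, by Pearson correlation of log2(value + 1) after centring each day, among 12910 genes. The libraries share depth, cell makeup and the laser, so these values are descriptions. Cryab was most like Alkbh2 (r = 0.93), Crybb3 (r = 0.92), which is also a lens marker, and Tyk2 (r = 0.92). Dnajb1 was most like Abhd16a (r = 0.99), Atp9a (r = 0.99) and Ctbp1 (r = 0.99), and Hspb8 most like Gpd1, Fam214b and Eef1d (each r = 0.98). Hspb1 was most like Atf5 (r = 0.98), Evl (r = 0.96) and Mapk8ip1 (r = 0.95), and Hsp90aa1 like Alg14, Dram2 and Psmc6 (each r = 0.98). Hsph1 was most like Dusp16 and Ccdc91 (each r = 0.95), and Hspa8 like Chst9 (r = 0.90), Gpc3 (r = 0.88) and Siae (r = 0.87). Hspa1a was most like Impdh1 (r = 0.94), Ntn3 (r = 0.93) and Vps18 (r = 0.92), and Hspa1b like Kcnab3 (r = 0.94), Ppfia4 (r = 0.93) and Apbb1 (r = 0.93). The HSP70 pair correlated with each other by 0.89. No other member was among the 3 most similar genes of any member.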

How the data were processed

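Sequencing measured poly(A) RNA in 12 retina libraries from a directional kit, per the labels' protocols, and sample titles gave the groups and replicate numbers. STAR 2.7.0, edgeR 3.28.0 and mm10 appear, with no role given, per the submitters' processing notes. The sources used here name neither the annotation nor the use of strand. The deposited signal is 1 value per gene in 1 table per day, named TPM by the authors, with column sums from 953049 to 1045986. Multiplied by the exon length in GENCODE M21 (53681 of 54367 genes had the same start and end), the signal fell on whole multiples of 1 step per library, after removing a factor that cycles with the table row through 6 values (0.955 to 1.04 on day 3, 0.962 to 1.05 on day 7). Of values under 20 reads, 98.9% to 99.1% were whole within 0.05. For 1 kb of exons, 3 reads equal 0.445 to 0.605 in the day 3 table and 0.292 to 0.380 in that of day 7, counting error only. In total 183 rows share a symbol, and 0 columns lacked a sample.

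Each day was fitted within its table with limma 3.58.1 in R 4.3.3 (trended empirical Bayes, 2-sided) on log2(value + 1), keeping genes whose mean reached 1, with Benjamini-Hochberg adjustment over the genes tested and a threshold of 0.05. Low genes have their change understated on this scale. An interaction term over 12 libraries tested the days against each other. The design had assumed TPM, and its test was retained. On simulated data the fit returned known changes correctly on average, while part of them passed the threshold. Tables and plots used matplotlib 3.10.9, NumPy 2.4.6, pandas 2.3.3 and Python 3.11.15. The members and all lists were chosen with earlier results of these data known. Named are the 9 members, the 2 genes with the smallest p of each of 8 related lists per day and the 3 most similar genes of each member; 1 gene that this rule names is not reported here.

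The design makes the left eye of a mouse the control of its right eye, but no label says that equal numbers mark 1 mouse. Between equal numbers, deviations from the group means had correlations of 0.485, 0.559 and 0.128 on day 7, and of 0.0413, 0.0162 and 0.0767 on day 3. Lasered library 3 of day 7 correlated more with control 1 (0.205) than with its own number. On day 3 each lasered library correlated best, though weakly, with its own number. The main fits used no pairs on either day, and equal numbers were paired only in the replicate block and in the ratios between equal numbers. Marker lists for 11 cell types were summed. Those not described in the results came, on day 3 in lasered and control retinas, to 332 to 1672 and 2447 to 2550 for cones, 353 to 524 and 549 to 620 for bipolar cells, 354 to 751 and 607 to 666 for amacrine and horizontal cells, 490 to 854 and 755 to 902 for ganglion cells, and 21.4 to 27.1 and 26.2 to 38.6 for muscle. Alternatives covered the pseudocount, the minimum, 3 rescalings, the cycling factor, the replicate block, library weights, the prior, a joint fit, each library left out, and voom on recovered reads (added after the data were seen).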

Additional observations from a re-analysis of the deposited data

How the results depend on the processing

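Over all genes, the count past the threshold on day 3 moved from 25 to 0 with a pseudocount of 5, 0 without a minimum, 13 with median-of-ratios, 13 with TMM, 12 with quantile normalization, 369 with library weights, 1139 in the joint fit of 12 libraries and 13 with voom, and ranged from 0 to 294 when 1 library was left out. On day 7 it moved from 38 to 13 without a minimum, 114 with library weights, 25 in the joint fit and 18 with voom, and ranged from 0 to 41. Between the days it moved from 0 to 2 with a pseudocount of 0.1, 3 with a pseudocount of 5, 28 without a minimum and 1119 with library weights, and ranged from 0 to 3. With the replicate block the counts were 0 on day 3, 53 on day 7 and 0 between the days, and the block called 0 members in each. On neither day do the labels say that equal numbers pair the libraries. The number of members called on day 3 was 2 with library weights (Dnajb1 with 1.31 and Cryab with 0.96), 1 in the joint fit (Dnajb1), and 0 to 2 when 1 library was left out; without lasered library 1 these were Dnajb1 and Cryab. Between the days it was 1 with library weights (Dnajb1, -1.12). With voom 0 members passed on either day. In the other settings 0 members passed.

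Library weights turned the day 7 difference of Hspa8 to -0.088, Hsp90aa1 to -0.11, Hsph1 to -0.18, Hspb8 to 0.050, Hspa1b to 0.090 and Hspa1a to 0.26, and the difference of Hsp90aa1 between the days to -0.60. Leaving out 1 library turned the sign on day 7 for Hsph1 (-0.061 to 0.48), Hsp90aa1 (-0.32 to 0.73), Hspb8 (-0.096 to 0.078) and Hspa1a (-0.34 to 0.082), and between the days for Hsp90aa1 (-0.55 to 0.49) and Cryab (-0.76 to 0.0073). The causes were not tested. No member changed sign on day 3 under the alternatives run. The planned edgeR test on recovered reads was not run. At the depth of day 3, Hspb1, Hspa1a and Hspa1b rest on 1 to 48 reads per library.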
